A study of Equus caballus with 13 samples.

Results

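Most of the 72 genes described here encode the ER-Golgi transport machinery. Its proteins bring newly made secretory proteins into the endoplasmic reticulum (ER) and carry them between the ER and the Golgi apparatus. The rule that chose the genes uses gene names and no measured value, although the set was proposed with earlier results of these data known. The rule took symbols that start with SEC, TMED, TRAPPC or SRP and a number, or with COP and one of A, B, E, G and Z, together with SSR1 to SSR4, SPCS1 to SPCS3, KDELR1 to KDELR3, SAR1A, SAR1B, MIA2 and MIA3. It found 72 of the 11056 genes in the authors' table for age and the same 72 of the 11249 genes in their table for sex, and 10974 genes stood in both tables. SPCS1, MIA3, TMED3, TMED6, TRAPPC2, TRAPPC2L and TRAPPC3L were not analysed here. The rule also took SEC14L1 and SEC14L2, lipid-binding proteins that share only the SEC prefix. They are given as a role of their own below but count among the 72 members.

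The cells were chondrocytes, which make and maintain cartilage matrix, released from the cartilage of wild-type horses (Equus caballus) and kept in culture for 2 days. All 3 groups then received 4-thiouridine (4sU) for 4 h, a uridine analogue that marks the RNA made in that time, so no group was left unlabelled. The groups were old female (5 samples), young female (5 samples) and young male (3 samples). The labels did not give ages in years or the joint of origin, nor say whether each sample came from a separate animal. The 13 samples carried 12 batch labels, and the 1 shared label, batch 10, joined a young female and a young male sample, so batch and group cannot be told apart.

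Each table gave 1 synthesis rate and 1 half-life per gene and group, as estimated by the authors. A half-life is the time in which the amount of an existing RNA drops by 50%, and was read as hours. A synthesis rate is the RNA made per unit of time, in arbitrary units whose handling of gene length is not given in the sources used here, so these rates are compared between groups, and between genes only as a place in the listed order. The implied level is the steady amount of RNA that both would give together, the product of rate and half-life over ln 2. The depth of the samples is unknown, no spread between samples can be computed, and no difference below was tested. A member was counted as called when a group ratio reached 2-fold, a log2 ratio of at least 1.00 in either direction, and the share of all genes called in the same way is printed beside the counts of members.

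Secretory proteins enter the ER through the translocon, a membrane channel built on SEC61, to which the signal recognition particle (SRP) brings the ribosome and where the translocon-associated protein complex (TRAP, the SSR genes) and signal peptidase work on the growing chain. Vesicles with a COPII coat (SAR1, SEC23, SEC24, SEC13 and SEC31) leave the ER at exit sites. TRAPP complexes tether them, SEC22B acts in their fusion, and COPI vesicles and KDEL receptors return escaped ER proteins. Chondrocytes use this route to export procollagens and proteoglycans in bulk, and inherited defects of SEC23A or TRAPPC2 cause skeletal disorders in people.

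RNAs of the transport machinery were longer-lived than most RNAs in these cells, and their median half-lives differed between roles, with wide ranges inside the SRP and TRAPP groups. In young female cells of the age table the median half-life of the 72 members was 7.09 h (interquartile range 3.53 to 14.7), beside 3.64 h for all genes, and 52 of 72 members lay above that all-gene median. The range ran from 1.09 h for TRAPPC14 to 64.7 h for SSR4. Among the roles, the longest half-lives were those of TRAP, signal peptidase and the translocon. Their medians were 24.3 h for the 4 TRAP genes, 19.7 h for the 4 signal peptidase genes and 13.4 h for the 6 translocon genes. The 8 genes named for the p24 family (TMED), the 3 KDEL receptors and the 8 COPI coat genes formed a middle range with medians of 12.4, 12.2 and 12.1 h. The 6 SRP genes had a median of 7.07 h.

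The COPII, TRAPP and SEC22 genes had shorter median half-lives than the roles above. SEC22B, the SEC22 gene that acts in vesicle fusion, nevertheless stood at 4.71 h in young female cells, above the all-gene median of 3.64 h. Medians were 4.03 h for the 14 genes of the COPII coat and its exit sites, 3.42 h for the 13 TRAPP genes and 1.86 h for the 3 SEC22 genes, and MIA2 stood at 2.42 h. The 2 SEC14L genes had a median of 2.54 h. All 14 genes of the translocon, TRAP and signal peptidase lay above the all-gene median, as did all 8 COPI genes, all 8 p24 genes and all 3 KDEL receptors, whereas 8 of 14 COPII genes and 6 of 13 TRAPP genes did. The order TRAP, signal peptidase, translocon held the first places in old female and young male cells as well, and SRP, COPII, TRAPP and SEC22 kept their ranks. The p24, COPI and KDEL receptor groups exchanged places between columns, and their medians were close.

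**Figure D1:**
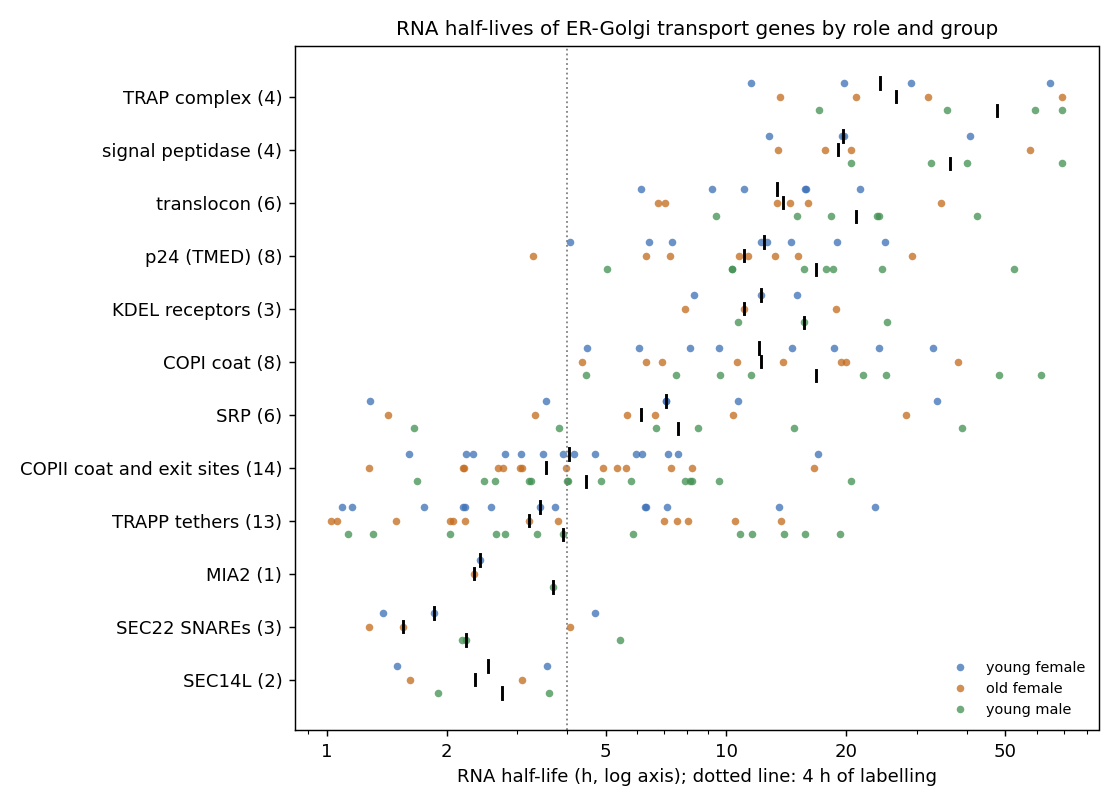
RNA half-life in hours on a log axis for each of the 72 genes, grouped by role with the number of genes in brackets. Points are genes, coloured by group (young female and old female from the age table, young male from the sex table), and black bars are medians; the TRAP genes lie at 11.5 to 64.7 h in young female cells and the SEC22 genes at 1.38 to 4.71 h.

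At the long end, SSR4, the delta subunit of TRAP, had a half-life of 64.7 h in young female cells and stood at the ceiling of the tables, 69.3 h, in old female and young male cells. SEC11C, a catalytic subunit of signal peptidase, followed with 40.9 h in young female, 57.7 h in old female and, at the ceiling, 69.3 h in young male cells. SRP14, a subunit of the SRP Alu domain, had 33.7 h in young female, 28.3 h in old female and 39.0 h in young male cells. At such half-lives little of the RNA is new after 4 h, 4.19% for SSR4 in young female cells by calculation, and a value at the ceiling is a lower limit. At the short end, TRAPPC14 had 1.09, 1.03 and 1.13 h in young female, old female and young male cells. TRAPPC4, of the TRAPP core, had 1.16, 1.07 and 1.31 h in the same order. SRP19 had 1.29, 1.43 and 1.65 h, so the SRP genes alone ran from 1.29 to 33.7 h in young female cells. SRP19 and SRP14 encode proteins of one particle, and their RNAs stood near opposite ends of the range in every group.

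Half-lives of 1 to 24 h, the span that 4 h of labelling was taken to resolve, were listed for 65 of 72 members in young female and old female cells and for 57 in young male cells. The order of the members was almost the same in every group. Spearman's rho over the 72 genes was 0.98 between young and old female cells and 0.98 between young female and young male cells, and over all 10974 shared genes it was 0.98 and 0.97. The young female samples entered both tables, and their 2 listed half-lives differed by less than 0.05 log2 units, after removal of the median offset, for 67 of 72 members. The largest deviation was 0.12 for SEC22C. Implied levels deviated by at most 0.00085, so where a half-life moved between the tables the synthesis rate moved the opposite way by nearly the same amount. This repeat uses the same samples and holds none of the variation between them.

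Paralogs, taken here as related genes of one family, differed from each other in half-life, mostly in the same order in each group. In 11 of the 13 families with at least 2 measured members the order was the same in all 4 columns of the tables. SEC22 and the TMED genes were the exceptions. Of the 4 columns, 2 come from the same young female samples. The order of all shared genes was also nearly kept, at the rho of 0.98 and 0.97 given above. How often sets of unrelated genes keep their order was not computed. The SEC24 genes, whose proteins pick the cargo of COPII vesicles, ran SEC24A, SEC24B, SEC24C, SEC24D from shortest to longest, at 1.61, 2.23, 2.80 and 3.49 h in young female cells. Old female cells gave 1.28, 2.21, 2.68 and 2.77 h and young male cells 1.68, 2.47, 2.65 and 4.00 h. SEC23B, of the inner coat, was shorter-lived than SEC23A, with 3.91 against 6.17 h in young female, 3.04 against 5.33 h in old female and 4.03 against 8.23 h in young male cells. SAR1A, the GTPase that starts coat assembly, had 4.16 h in young female cells and SAR1B 5.95 h. The outer-coat genes SEC31A and SEC31B had 7.59 and 17.0 h, and the exit-site scaffolds SEC16A and SEC16B had 3.07 and 4.71 h. All of the COPII pairs thus differed by 1.43- to 2.24-fold in young female cells.

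Wider gaps were found in some other families. The 8 TMED genes, the largest family by name, spanned 6.14-fold in young female, 8.86-fold in old female and 10.4-fold in young male cells, from TMED8 to TMED10. The low end rests on TMED8 alone, at 4.08, 3.29 and 5.05 h in the same groups. TMED5 came next at 6.40, 6.31 and 10.4 h. COPZ2, a zeta subunit of the COPI coat, had half-lives of 32.9, 38.0 and 48.3 h in young female, old female and young male cells, and COPZ1 had 6.04, 6.32 and 7.50 h. COPZ2 RNA was therefore listed as 5.45 to 6.44 times longer-lived in every column. Its half-lives all lay above the 24 h taken as resolved, and its synthesis rate was low. TRAPPC6A, a TRAPP core subunit, had 23.6 h in young female cells, 6.34 times the 3.73 h of TRAPPC6B, but only 2.11 times in old female and 2.69 times in young male cells. Among the KDEL receptors the order was KDELR2, KDELR1, KDELR3, at 8.30, 12.2 and 15.0 h in young female cells. SEC61A1, the main form of the translocon channel, had 15.8 h and SEC61A2 9.21 h. SEC22B, the ER-Golgi SNARE, was the longest-lived SEC22 gene at 4.71 h, and SEC22A and SEC22C exchanged places in old female cells, where they stood at 1.55 and 1.28 h.

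**Figure D2:**
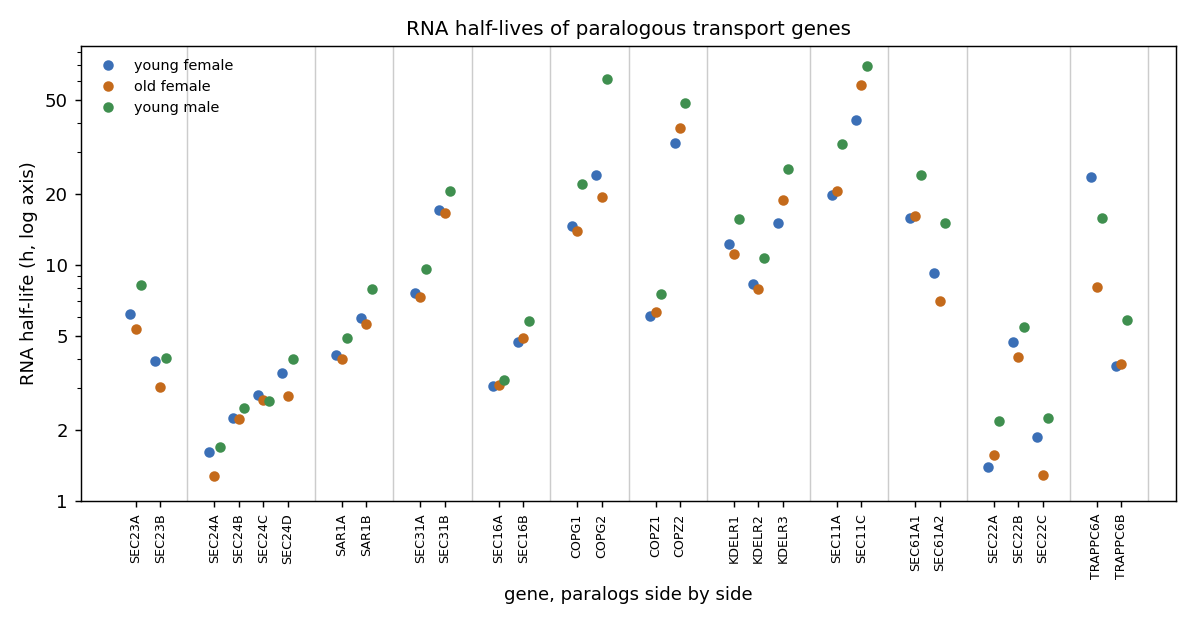
RNA half-life in hours on a log axis for paralogous genes placed side by side, with families separated by grey lines. Each point is the authors' group value (young female and old female from the age table, young male from the sex table); COPZ2 lies far above COPZ1 in all 3 groups, and TRAPPC6A is highest in young female cells at 23.6 h.

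The comparison of young male with young female cells asked how sex affects RNA kinetics. Nearly all members had longer half-lives and most had lower synthesis rates in male cells, and these differences largely offset each other in the implied level. The half-life was longer in male cells for 67 of 72 members, where 77.3% of all genes were longer, and the median log2 ratio was 0.38 (1.30-fold) beside 0.27 for all genes. The synthesis rate was higher in male cells for 13 members and lower for 59, where 28.9% of all genes were higher, with a median of -0.33 beside -0.28. Set against the medians of all genes, 45 of 72 half-life ratios lay above, where 50.0% of all genes do by construction, and 29 of 72 synthesis ratios did, against 50.0%. The implied level was higher for 41 members and lower for 31, where 50.5% of all genes were higher, with a median of 0.07 beside 0.01. A longer half-life together with a lower synthesis rate was found for 56 of 72 members, and the ratios were of opposite sign for 80.6% of members and 77.0% of all genes. The synthesis rate and the half-life of a gene come from the same reads, and the part of this in the opposite signs was not tested.

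The shares of members past 2-fold lay near or below those of all genes. Half-life was called for 5 members (6.94%) against 7.58% of all genes, all 5 longer in male cells. Synthesis rate was called for 4 members (5.56%) against 12.2% of all genes, and implied level for 2 (2.78%) against 4.61%.

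The 5 members with half-lives at least 2-fold longer in male cells served different steps. COPG2, a gamma subunit of the COPI coat, had a half-life of 22.9 h in young female and 61.4 h in young male cells, a log2 ratio of 1.42. TRAPPC1, of the TRAPP core, had 6.25 and 14.0 h, a ratio of 1.16, and was the 1 called gene with both half-lives within 1 to 24 h. TMED10, a p24 receptor that binds COPI and COPII coats, had 52.5 h in male cells, a log2 ratio of 1.07, and the half-lives imply that 10.5% of its RNA in female and 5.14% in male cells was newer than 4 h. SSR2, the beta subunit of TRAP, had 28.9 and 59.3 h, and SPCS3, a subunit of signal peptidase, had 19.5 and 40.1 h, each with a ratio of 1.04. The same share was 11.4% in female and 4.41% in male cells for COPG2, and 35.8 and 18.0% for TRAPPC1. All 5 ratios lay below 2-fold once each gene was set against genes of like half-life, as given further down, and 4 of the 5 did once centred on the median of all genes, with COPG2 at 1.15.

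The implied level, which combines half-life and synthesis rate by construction, differed among these genes. COPG2 had a synthesis rate of 44.7 in the female and 16.8 in the male cells, a log2 ratio of -1.41, and its implied level differed by 0.01. SSR2 had rates of 525 and 423, and its implied level was 0.72 higher in male cells. For TRAPPC1 and TMED10 the implied levels were 0.51 and 0.52 higher. Beside genes of like half-life the level ratios of COPG2, SSR2, TRAPPC1 and TMED10 were -0.41, 0.30, 0.21 and 0.09. COPG2, TRAPPC1 and TRAPPC6A had low synthesis rates, at the 13.5, 13.4 and 2.52 percentile of all genes in the female column of the sex table.

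The largest difference in synthesis rate among the members was that of TRAPPC8, a TRAPPIII subunit, at 338 in the female and 92.7 in the male cells, a log2 ratio of -1.87. Its half-life was 1.79 h in female and 2.80 h in male cells, and its implied level was 2.33-fold lower in male cells, a log2 ratio of -1.22, or -0.99 and just short of 2-fold beside genes of like half-life. MIA2, which works with MIA3 in loading procollagen and other large cargo at ER exit sites, had synthesis rates of 434 and 185, a ratio of -1.23 that fell short of 2-fold centred on the median of all genes (-0.95) and beside genes of like half-life (-0.83). Its half-life was 2.42 h in female and 3.70 h in male cells, and its implied level had a ratio of -0.62. TRAPPC6A had rates of 8.09 and 18.8, a ratio of 1.22, the 1 member called in the upward direction as listed. Centred on the median of all genes SSR4 also passed, at 1.10, so that 2 members were called upward and 2 downward. The half-life of TRAPPC6A was 24.4 h in female and 15.8 h in male cells, the largest difference towards a shorter half-life among the 72 genes.

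COPZ2 was the 1 member whose implied level was at least 2-fold higher in male cells. Its half-life was 33.9 h in young female and 48.3 h in young male cells and its synthesis rate was 32.1 and 50.7, which gives a level ratio of 1.17, or 0.74 and no longer 2-fold beside genes of like half-life. The half-life ratio of 0.51 was 0.24 centred on the median of all genes and 0.00 beside genes of like half-life, and the synthesis ratio of 0.66 was 0.94 and 0.71. Both COPZ2 half-lives lay above the 24 h taken as resolved. Its synthesis rate was low, at the 9.92 percentile of all genes in the female column of the sex table. COPZ1 had a level ratio of 0.34. SSR4 had synthesis rates of 99.5 and 176 and its implied level was higher by 1.90-fold, with the male half-life at the ceiling, which leaves the split between rate and half-life uncertain for this gene.

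**Figure D3:**
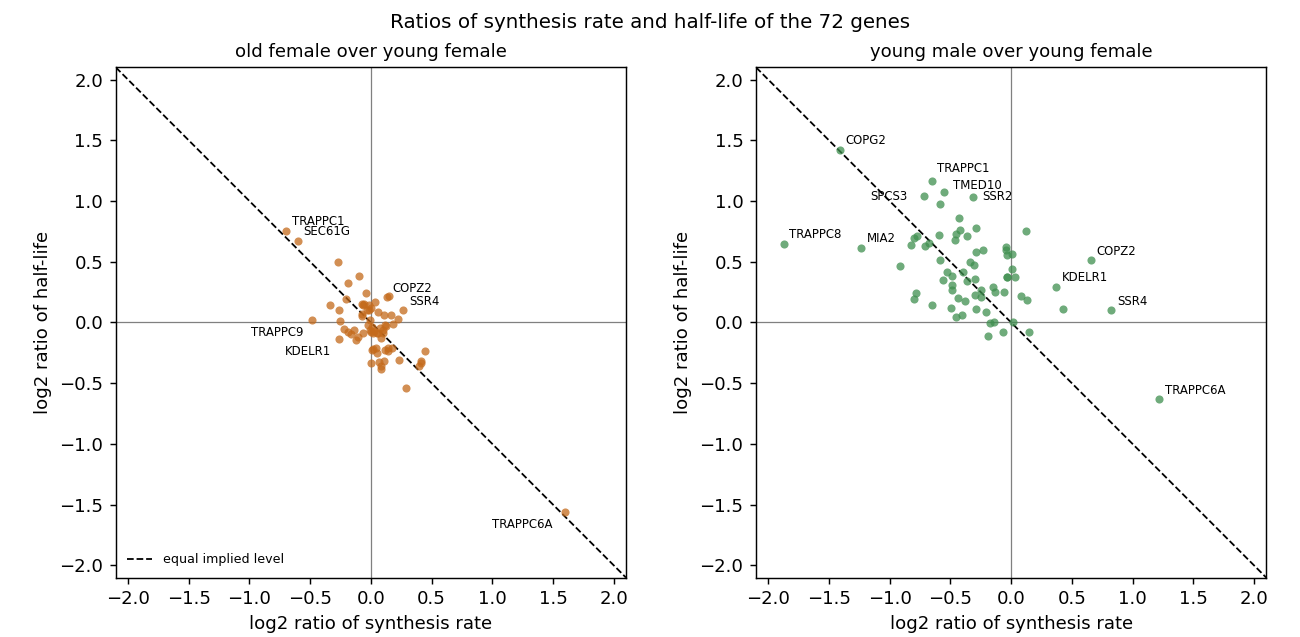
Log2 ratio of half-life against log2 ratio of synthesis rate for the 72 genes, old female over young female on the left and young male over young female on the right; each point is a gene and the dashed line marks an equal implied level. In the sex comparison 56 of 72 points lie in the quadrant of longer half-life and lower synthesis rate, and in the age comparison TRAPPC6A stands alone at 1.59 and -1.56.

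By role, the translocon, TRAP and signal peptidase gave the largest half-life ratios. They are pooled below, a pool that was not among the role lists set beforehand. It leaves out SRP, which also serves entry into the ER and had ratios from -0.08 for SRP9 to 0.47 for SRP72. All 14 genes of the translocon, TRAP and signal peptidase were longer-lived in male cells, with a median log2 ratio of 0.71, and 13 of 14 lay above the median of all genes and above that of genes of like half-life, SSR4 being the exception, whose male half-life at the ceiling left no room for a larger ratio. Of the 14, 12 had a higher implied level, with a median of 0.37, but 7 did beside genes of like half-life. The 4 signal peptidase genes ranged from 0.68 to 1.04 in half-life ratio, where the 0.76 of SEC11C is a lower limit because its male half-life stood at the ceiling, and all 4 had lower synthesis rates in male cells, also after either centring. All 6 translocon genes were longer-lived, from 0.60 for SEC61A1 to 0.98 for SEC61G, and all 6 had lower synthesis rates, 4 of 6 after either centring. SEC61A1 had half-lives of 15.8 and 23.9 h in young female and young male cells, and its implied level was 1.47-fold higher. SEC62 and SEC61A2 were the 2 translocon genes with a lower level, at -0.08 and -0.06. The 4 TRAP genes were all higher in level, from 0.43 for SSR1 to 0.93 for SSR4.

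The KDEL receptors were alone among the roles with 3 or more genes in having every synthesis rate higher in male cells, although by little for KDELR2. KDELR1 had a synthesis rate of 352 in the female and 455 in the male cells, and its implied level was 1.59-fold higher. KDELR2 had 1761 and 1802, with a level 1.33-fold higher. KDELR3 had half-lives of 15.0 and 25.3 h and a level 1.83-fold higher. The 8 p24 genes were all longer-lived in male cells and 6 of 8 were higher in level, though 4 of 8 beside genes of like half-life. On that scale TMED1 and TMED4 had shorter half-lives in male cells, at -0.36 and -0.09. TMED1 was the 1 gene of the family whose synthesis rate was higher, at 157 and 211. Of the 8 COPI genes, 7 were longer-lived and 7 higher in level, though 4 and 4 of 8 beside genes of like half-life. COPB1, the beta subunit, was the exception in both, with half-lives of 4.49 and 4.47 h and a level ratio of -0.17.

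Of 14 COPII and exit-site genes, 9 had a lower implied level in male cells and 5 a higher one, where 50.5% of all genes were higher. The synthesis rate was lower for 13 of 14, SEC13 being the exception at a ratio of 0.13, where 28.9% of all genes were higher. Beside genes of like half-life 8 of 14 rates and 12 of 14 levels were lower, and 3 of 14 half-lives were longer where 13 of 14 were as listed. In the inner coat (SAR1, SEC23 and SEC24) all 8 synthesis rates and 7 of 8 levels were lower, 6 and 8 of 8 beside genes of like half-life. The level ratios of SEC24A, SEC24B, SEC24C and SEC24D were -0.34, -0.38, -0.15 and -0.24, and that of SEC23B was -0.41, while SEC23A stood at 0.02. In the outer coat all 3 genes, SEC13, SEC31A and SEC31B, had higher levels, by 0.32, 0.07 and 0.19, but 1 of 3 did beside genes of like half-life. SEC23IP, an exit-site protein that binds SEC23, had synthesis rates of 1045 and 553 and a level ratio of -0.45. The split of the coat into inner and outer genes was made after these values were seen.

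The TRAPP genes had lower synthesis rates in male cells in 12 of 13 cases, TRAPPC6A being the exception, with a median log2 ratio of -0.58, and in 10 of 13 after either centring. Their implied levels were lower in 9 of 13, and in 7 of 13 beside genes of like half-life. Split by complex after the values were seen, the 3 TRAPPII genes (TRAPPC9, TRAPPC10 and TRAPPC14) were all lower in level, 3 of 4 TRAPPIII genes were lower, and the 6 genes of the shared core were 3 higher and 3 lower; beside genes of like half-life 1 of 3, 0 of 4 and 5 of 6 were higher. TRAPPC11 and TRAPPC10 followed TRAPPC8 with level ratios of -0.61 and -0.54, and TRAPPC5, of the core, was higher by 0.48. All 3 SEC22 genes had lower synthesis rates and levels, from -0.04 for SEC22B to -0.51 for SEC22C in level, though 1 of 3 levels and 1 of 3 rates were higher beside genes of like half-life. Of the 6 SRP genes 3 were higher and 3 lower in level, within -0.22 and 0.30. SEC14L1 and SEC14L2 had level ratios of -0.02 and 0.02.

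**Figure D4:**
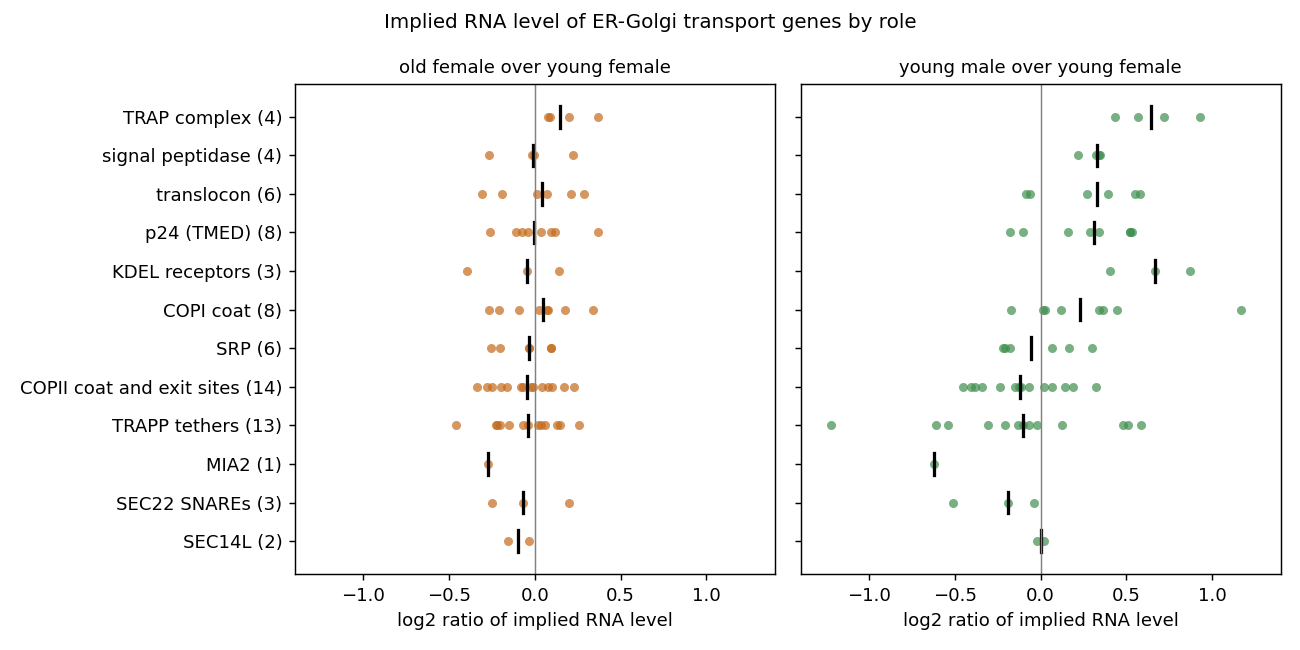
Log2 ratio of implied RNA level for each gene by role, old female over young female on the left and young male over young female on the right, with black bars at the role medians. In the sex comparison the TRAP genes lie at 0.43 to 0.93 and TRAPPC8 lies farthest to the left at -1.22, and in the age comparison all 72 points lie within 0.50 of zero.

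The level difference followed the half-life of the gene. When the members were ordered by their half-life in old female cells, the group that does not enter the ratio, and split into 3 sets of 24, the median level ratio of male over female was -0.21 in the shortest-lived set (1.03 to 3.98 h), 0.12 in the middle set (4.07 to 11.1 h) and 0.38 in the longest-lived set (11.4 to 69.3 h). Of the 24 genes, 1 was higher in the first set, where 30.9% of all genes in that range were higher, and 23 were higher in the last, where 89.0% were. All genes in the same ranges of half-life had medians of -0.18, 0.14 and 0.38, close to those of the members. The median half-life ratios were 0.20, 0.37 and 0.61 for the members and 0.19, 0.37 and 0.49 for all genes in those ranges. Spearman's rho between the level ratio and the half-life in old female cells was 0.84 over the 72 members and 0.60 over the 10974 shared genes, as a description of points that share their samples.

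The roles with long-lived RNA are those listed above with mostly higher levels in male cells. The roles of the pathway with short-lived RNA are those with mostly lower levels, with the SRP genes between them. After each ratio was set against the median of all genes in the same bin of half-life (10 bins of equal size, set by the old female half-life), the half-life ratio was above 0 for 43 of 72 members, against 50.0% of all genes, with a median of 0.05. The synthesis ratio was above 0 for 30 members, against 50.0%, with a median of -0.09, and the level ratio for 30 members, against 50.0%, with a median of -0.04. On this scale the 6 translocon genes and the 4 signal peptidase genes all still had longer half-lives in male cells, by 0.13 to 0.47 and 0.21 to 0.58, while their levels lay on both sides of zero. The KDEL receptors and the TRAP genes remained higher in level, by 0.22 to 0.45 and 0.01 to 0.50. In the COPII group 12 of 14 levels lay below zero, none by more than 0.33. COPZ2 stood at 0.74 and TRAPPC8 at -0.99 in level, so neither reached 2-fold, and TRAPPC6A reached -1.02 in half-life.

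**Figure D5:**
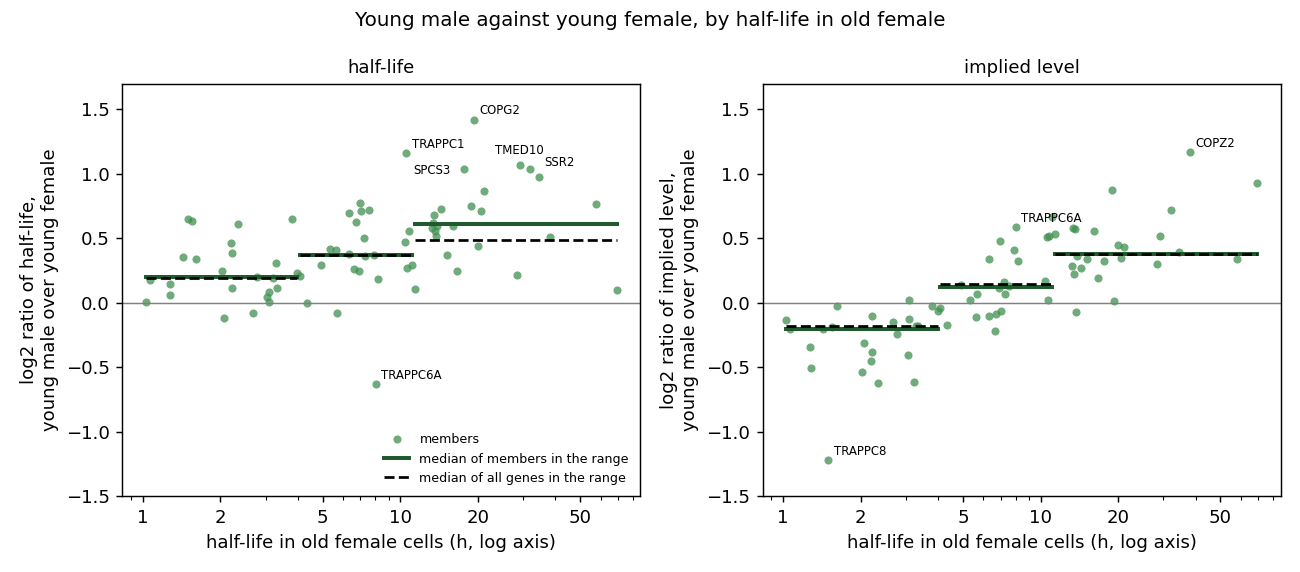
Log2 ratio of half-life (left) and implied level (right) of young male over young female cells against the half-life in old female cells in hours on a log axis. Green points are the 72 genes, solid bars the medians of 24 genes each and dashed bars the medians of all genes in the same range; the level medians are -0.21, 0.12 and 0.38 for the members and -0.18, 0.14 and 0.38 for all genes.

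Markers of the cells moved with the sex comparison. All 10 chondrocyte markers were listed, and 9 of 10 had a higher implied level in young male cells, with a median log2 ratio of 1.54 and 6 at least 2-fold higher, where 50.5% of all genes were higher and 4.61% passed 2-fold in either direction. Beside genes of like half-life 9 of 10 were still higher, with a median of 1.11 and 6 past 2-fold. SOX9, the chondrocyte transcription factor, was the exception as listed, at -0.08. COL2A1, the main cartilage collagen, had a level ratio of 1.74. CHAD and CNMD stood at the half-life ceiling of 69.3 h in every group, and COMP and MATN3 did in male cells. For these genes the split between rate and half-life is uncertain there. Of markers for other cells, the 1 listed bone marker, IBSP, had a ratio of 2.19, the fibroblast markers THY1 and PDPN had 1.39 and -0.21, and the 1 listed endothelial marker, VWF, had 0.04. The macrophage markers CD68, CD163, CSF1R and PTPRC were not analysed here. In the age comparison the chondrocyte markers had a median level ratio of -0.31, with 4 of 10 higher, where 50.7% of all genes were, and PDPN, IBSP and VWF had -0.14, 0.77 and 0.26, while THY1 was lower by just under 2-fold. The part of these differences in the values of the transport genes was not tested, and in such bulk samples fewer cells of a type and less RNA per cell cannot be told apart.

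The comparison of old with young female cells asked how age affects RNA kinetics. It uses the same young female samples as the comparison by sex, so the 2 sets of ratios are not independent. The transport machinery differed little between the ages. The half-life was longer in old cells for 29 of 72 members and shorter for 43, where 36.5% of all genes were longer, with a median log2 ratio of -0.06 beside -0.08 for all genes. The synthesis rate was higher for 40 members, where 60.2% of all genes were higher, with a median of 0.02 beside 0.08, and the implied level was higher for 33 members, where 50.7% were higher, with a median of -0.02 beside 0.00. Set against the medians of all genes, 43 of 72 half-life ratios lay above, against 50.0%, and 26 of 72 synthesis ratios did, against 50.0%, so the direction of both turned with the centring. All 72 members had a level ratio within 0.50 of zero, as did 84.4% of all genes, and in the comparison by sex 54 of 72 members and 8439 of 11249 genes did.

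At 2-fold, 1 member was called for half-life (1.39%, against 3.53% of all genes), 1 for synthesis rate (1.39%, against 7.52%) and 0 for implied level (against 4.12%). Both calls were TRAPPC6A. Its half-life of 23.6 h in young female cells was 8.02 h in old female cells, a log2 ratio of -1.56, and its synthesis rate of 8.76 was 26.5, a ratio of 1.59. Its implied level differed by 0.04, and the share of its RNA newer than 4 h was 11.1% in young and 29.2% in old cells. Its synthesis rate stood at the 1.77 percentile of all genes in young female cells, the lowest rate among the members.

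TRAPPC1 and SEC61G, the gamma subunit of the translocon, showed the opposite pair of differences. TRAPPC1 had half-lives of 6.25 h in young and 10.6 h in old cells and synthesis rates of 46.5 and 28.7, ratios of 0.76 and -0.70. SEC61G had 21.6 and 34.5 h and rates of 43.9 and 28.9, ratios of 0.67 and -0.60. Their implied levels differed by 0.06 and 0.07, and the synthesis rates of both were low, at the 11.6 and 11.0 percentile. SEC11C had 40.9 and 57.7 h, a ratio of 0.50. SEC22C had 1.86 and 1.28 h, a ratio of -0.54, and was the gene whose young female half-life deviated most between the tables. SEC61B, the beta subunit of the translocon, had synthesis rates of 279 and 379, a ratio of 0.44, and SEC61A2 had half-lives of 9.21 and 7.05 h, a ratio of -0.39.

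The largest level differences by age were small. TRAPPC9, a TRAPPII subunit, had synthesis rates of 95.7 and 68.4 in young and old female cells at half-lives of 13.5 and 13.7 h, and its level was 1.38-fold lower in old cells. KDELR1 had a level 1.32-fold lower, and SEC24D one 1.26-fold lower, with half-lives of 3.49 and 2.77 h. SSR4 and TMED10 had levels 1.29-fold higher in old cells and COPZ2 one 1.27-fold higher. MIA2 had half-lives of 2.42 and 2.33 h and a level ratio of -0.28.

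By role, all 8 genes of the inner COPII coat had shorter half-lives in old cells, from -0.01 for SEC24B to -0.36 for SEC23B, with SEC24A and SEC24D at -0.34 and -0.33. These are small values, and 4 of 8 lay above the median of -0.08 for all genes. SEC13, of the outer coat, had a half-life of 7.16 h in young and 8.21 h in old cells. All 4 TRAP genes had longer half-lives, by 0.10 to 0.24, and higher levels, by 0.07 to 0.37, although the old female half-life of SSR4, which gives the 0.10 and the 0.37, stood at the ceiling and its half-life ratio is a lower limit. Of the 14 genes of the translocon, TRAP and signal peptidase, 11 had longer half-lives and 11 lower synthesis rates. Among all genes 36.5% had longer half-lives and 60.2% had higher synthesis rates. The SRP genes, which also serve entry into the ER, had half-life ratios from -0.32 for SRP9 to 0.15 for SRP19. KDELR3 was the 1 KDEL receptor with a longer half-life, at 15.0 and 18.9 h. In the p24 family 2 of 8 half-lives were longer and in the COPI coat 4 of 8, where 36.5% of all genes were, and 4 and 6 of 8 lay above the median of all genes.

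Other genes of the pathway, from lists that hold none of the members, were set beside these values. Of 36 ER-Golgi partners (among them the COPI subunit ARCN1, cargo receptors, SNAREs and tethers), 33 had longer half-lives in male cells, where 77.3% of all genes did, with a median log2 ratio of 0.32 beside 0.27 for all genes. ERGIC2 was the 1 past 2-fold, at 1.01 in half-life and -1.01 in synthesis rate, and 0 of 36 reached 2-fold in level, where 7.58, 12.2 and 4.61% of all genes passed 2-fold in half-life, synthesis rate and level; after either centring ERGIC2 did not pass. By age 0 of 36 partners reached 2-fold in any of the 3 quantities, where 3.53, 7.52 and 4.12% of all genes did. The 36 partners had a median half-life of 4.22 h in young female cells of the age table, beside 7.09 h for the members and 3.64 h for all genes. Of these partners, 23 of 36 lay above the all-gene median. The oligosaccharyltransferase, which glycosylates proteins at the translocon, had 10 of 12 listed genes with values. Their median half-life of 34.5 h in young female cells was above that of each role described here. All 10 had longer half-lives and higher levels in male cells, where 77.3% and 50.5% of all genes did, with a median level ratio of 0.58 and 0 past 2-fold. Beside genes of like half-life 8 of 10 half-lives and 7 of 10 levels were higher, with a median level ratio of 0.16. The male half-lives of RPN2, DDOST, TUSC3 and MAGT1 stood at the ceiling of 69.3 h, so their half-life ratios are lower limits.

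Among 20 regulators and effectors of ER stress with values, 4 had half-lives at least 2-fold longer in male cells, and 1, DDIT3, had one at least 2-fold shorter, at a male half-life of 0.07 h that lies under the resolved range; 7.58% of all genes passed 2-fold. The 4 were the ER chaperones HSPA5, SDF2L1, PDIA4 and CALR, at 1.18, 1.41, 1.27 and 1.04, the PDIA4 value being at the ceiling in male cells. PDIA6 and HSP90B1, at ratios of 0.90 and 0.46, also stood at the ceiling in male cells. Their ratios are lower limits, so the count of 4 is a minimum. Centred on the median of all genes 1 of these 4, SDF2L1, stayed past 2-fold, and 0 did beside genes of like half-life, but the PDIA4 ratio is a lower limit and cannot be counted as short of 2-fold. CREB3L1, a transcription factor of secretory genes, had a level ratio of 2.23 in male cells and PDIA4 one of 1.03, the 2 of 20 genes past 2-fold in level, where 4.61% of all genes were. In old cells CREB3L1 and SERPINH1, the collagen chaperone, had half-lives at least 2-fold shorter, at ratios of -1.02 and -1.12, where 3.53% of all genes passed 2-fold and SERPINH1 alone of the pair did after centring on the median of all genes. ERN1, the ER stress sensor IRE1, had a level ratio of 1.10 in old cells, the 1 of 20 past 2-fold where 4.12% of all genes were, with a half-life of 0.96 h that lies under the resolved range. In synthesis rate DDIT3 and CREB3L1 had ratios of 4.14 and 1.58 by sex, where 12.2% of all genes passed 2-fold. By age ERN1 and DDIT3 had 1.69 and 1.22, where 7.52% did. Both had half-lives under the resolved range in old cells. The transport genes themselves had no level ratio past 2-fold by age.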

How the data were processed

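RNA synthesis rates and half-lives were taken from 2 tables that the authors made from 4sU-labelled, poly(A)-selected, strand-specific libraries. Per the file headers, each of the 4 value columns of a table is a group's synthesis rate or half-life, and these deposited values were used as they stand; 0 columns held values per sample. Per the submitters' processing notes, cutadapt 4.5, STAR 2.5.3 and the genome build EquCab 3.0 were used. The kinetic model, units, gene filter, strand handling in counting and way of combining samples are not given in the sources used here. The group headed as young in the age table was read as young female, because the labels assign those samples to both tables. Half-lives were read as hours because values stop at 69.3, a decay rate of 0.01 per h.

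Log2 ratios of group values were computed within a table (Python 3.11.15, pandas 2.3.3, numpy 2.4.6, scipy 1.17.1, matplotlib 3.10.9), with no pseudocount and no filter. The implied level assumes constant RNA amounts during labelling. The share of new RNA is 1 minus the fraction of RNA left after 4 h. For half-life-matched ratios, genes were split into 10 bins by the half-life of the group not in the ratio, and bin medians were subtracted. The calculations were tested on simulated data. Named genes were members at or past 2-fold, the largest differences within 1 to 24 h, the longest and shortest half-lives, the COPII genes, MIA2, the KDEL receptors and paralogs; SSR1, SSR2, TMED10, TRAPPC5, TRAPPC10 and other single genes were added after their values were seen. The members and lists were chosen with earlier results of these data known. All 72 symbols matched a RefSeq gene table (of another assembly), which was used for names only, and no sequence or coordinate was used here.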

Additional observations from a re-analysis of the deposited data

How the results depend on the processing

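Depth and spread between samples are unknown, so no alternative could be tested. Leaving out each replicate was not run, and promoter motifs and protein identities were not computed here. No paired analysis was possible because the tables hold 1 value per group and no value per sample. Of the values that answer a comparison, 78 kept their size and 28 moved. Within the range of 1 to 24 h, the calls by sex were 1 (half-life), 2 (synthesis rate) and 1 (level), with a median level ratio of -0.05. In the upper 75% by synthesis rate the calls by sex were 3, 2 and 1, those by age for half-life and synthesis rate were 0 and 0, and the median young female half-life was 6.23 h for members and 2.81 h for all genes. Centred on the median of all genes, half-life by sex gave 1 call and a median of 0.11, and synthesis rate by sex a median of -0.05; by age the medians of half-life and synthesis rate were 0.03 and -0.06. Centred within 10 bins of half-life, half-life by sex gave 1 call (TRAPPC6A, shorter, where all 5 calls as listed were longer) and a median of 0.05, synthesis rate a median of -0.09, and level 0 calls and a median of -0.04; by age the medians of half-life and synthesis rate were 0.04 and -0.05. At a threshold of 0.5 the counts by sex were 31, 23 and 18 for half-life, synthesis rate and level, and by age 4 and 3 for half-life and synthesis rate. The medians of level by sex and of half-life and synthesis rate by age, all close to 0, changed sign in this way. MIA2 fell short of 2-fold in synthesis rate by sex after either centring, at -0.95 and -0.83. Young female values of the other table, genes in both tables, leaving out half-lives at the ceiling and leaving out the SEC14L genes, the last chosen after seeing the data, moved none of these counts. A threshold of 0.5 admits more calls by construction, and centring subtracts the median of other genes; the cause of the shifts under the filters was not tested.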
